A study of Mus musculus with 6 samples.

Results

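Arginine and polyamine metabolism was examined in 2D-MAOs, mouse airway epithelial organoids of C57BL/6 lung that were dissociated and plated as a flat culture on collagen. The genes were chosen by name, as 10 enzymes that make or consume arginine and ornithine or that build polyamines, and all 10 were found on the array, of 22910 genes with a probe that could be named. They were Arg1, Arg2, Nos2, Ass1, Asl, Oat, Aldh18a1, Odc1, Srm and Sms, reached by 15 probes in all. In 3 cultures TGF-β1 was added on day 3 and in 3 control cultures it was not. Noggin and A83-01, a blocker of BMP ligands and an inhibitor of the TGF-β receptor kinase, were absent from the medium of both groups, and all cultures were harvested on day 7. The methods call the 3 cultures of a group biological replicates without saying whether they came from separate mice, so the p-values measure the spread between these cultures.

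Arginine stands at a branch point of metabolism. Arginases split it into urea and ornithine, and nitric oxide synthases turn it into nitric oxide and citrulline, from which argininosuccinate synthase and argininosuccinate lyase can rebuild it. Ornithine is either decarboxylated to putrescine, the parent of spermidine and spermine, or exchanged with glutamate semialdehyde on the way to glutamate and proline. In the lung this branch point is known from asthma and fibrosis, where arginase and nitric oxide synthase draw on the same arginine.

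RNA of each culture was hybridised to 1 array, and the values below are log2 of the spot brightness after quantile normalisation, so that a difference of 1 is a 2-fold change. Levels of a gene were compared between arrays and not with those of other genes, since brightness depends on the probe. Where the signals of a marker list are summed, bright probes dominate, so a sum does not show the share of each gene. Between 55.0% and 59.0% of probes were well above background per array. Known TGF-β1 targets were higher in the treated arrays. Pmepa1, whose product dampens TGF-β signalling, rose by 1.31 on the log2 scale (limma adjusted p = 0.00619), while Smad7 and Skil had log2 fold changes of 0.82 and 0.65 with limma adjusted p of 0.0747 and 0.0571. The epithelial genes Epcam, Cdh1, Krt8, Krt18 and Nkx2-1 were well above background on all 6 arrays, and of the 10 airway markers examined Muc5ac was not above it on any. TGF-β1 replicate 3 stood apart from the other TGF-β1 arrays. Over all 14345 genes tested it lay at a Euclidean distance of 61.1 and 62.3 from them and of 54.4 to 60.9 from the controls, whereas TGF-β1 replicates 1 and 2 were 32.3 from each other and 69.7 to 81.2 from the controls. Each result below is therefore also given without that array where its call changes.

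After TGF-β1, 2 of the arginine genes rose. Arg1, which encodes the cytosolic arginase, rose 7.84-fold, and Ass1, which encodes argininosuccinate synthase, rose 1.83-fold. Arg2, which encodes the mitochondrial arginase, was on average 2.30-fold lower but did not pass the test across all genes, and the enzymes of polyamine synthesis had log2 fold changes of -0.34 to 0.08, without passing it. The sizes for Arg1 and Arg2 depend on how background is treated. On the log2 scale they were 2.97 and -1.20, but 1.43 and -0.52 with normexp background. All 10 genes passed the filter on dim probes. With limma, 2 of the 10 had an adjusted p under 0.05, beside 2.04% of all genes tested. Both were higher after TGF-β1, beside 1.63% of all genes in that direction. None of the 10 was lower at that threshold, beside 0.404% of all genes. The study also requires a change of at least 2-fold for its DEGs. With that cut added to the limma threshold, 1 of the 10 was higher (Arg1) and 0 lower, beside 1.19% and 0.188% of all genes. Only the 2-fold cut is taken from the study, whose methods name a different test, so these are not its DEG calls. By that test without adjustment, Arg1 was higher and Arg2 lower at p under 0.05, with log2 fold changes of 2.97 and -1.20. At an unadjusted limma p under 0.05, 3 were higher and 2 lower, beside 11.4% and 10.7% of all genes. The groups did not overlap in 6 of the 10 genes, beside 26.4% of all genes. In 3 of these the TGF-β1 arrays lay above the controls and in 3 below, beside 12.9% and 13.5%. The log2 fold changes of the 10 genes had a median of -0.10, and those of all genes tested had one of -0.03.

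**Figure D1:**
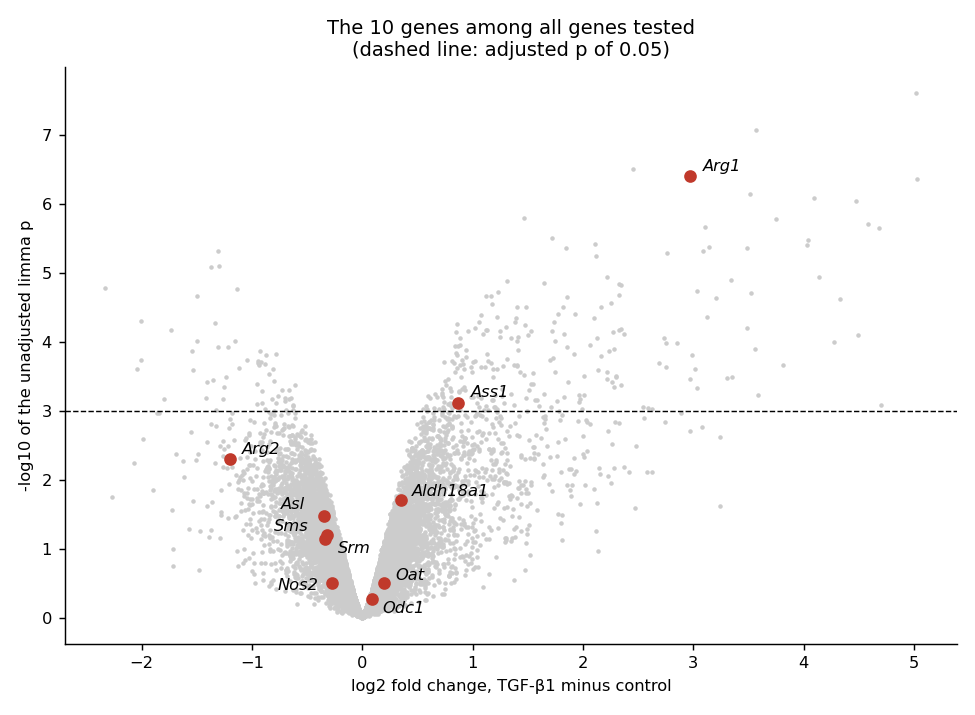
Each grey point is 1 of the 14345 genes tested, with the log2 fold change (TGF-β1 minus control, 3 arrays each) on the x axis and -log10 of the unadjusted limma p on the y axis. The 10 arginine and polyamine genes are red, and of these only Arg1 (2.97) and Ass1 (0.87) lie above the dashed line, which marks an adjusted p of 0.05.

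Arg1, the enzyme of the urea cycle in liver and a well-known marker of alternatively activated macrophages, gave the largest change of the 10 genes. Its normalised log2 signal was 4.36, 4.53 and 4.57 in control replicates 1, 2 and 3, and 7.74, 7.21 and 7.41 in TGF-β1 replicates 1, 2 and 3. The groups were far apart, and TGF-β1 replicate 3 lay between the other TGF-β1 arrays. The means were 4.49 ± 0.11 and 7.46 ± 0.27 (SD, n = 3 each), and the difference of 2.97 on the log2 scale passed the test (SE 0.16, limma adjusted p = 0.00124). By its p, Arg1 ranked 4 among the 14345 genes tested, and by the size of its increase it ranked 38. The exact permutation test over the 6 arrays gave p = 0.1 (two-sided), the smallest that 3 against 3 allow. The single Arg1 probe was dim in controls, where it was well above background on 2 of 3 arrays and its spots had 1.67 to 1.79 times the brightness around them. After TGF-β1 it was well above background on all 3 arrays, at 5.42 to 7.93 times the local background. The size of the fold change therefore depends on how background is treated. With normexp background and an offset of 50 the log2 fold change was 1.43 (limma adjusted p = 0.00117), and without any single array it was 2.83 to 3.09 and passed every time.

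The other arginase gene was not higher on any TGF-β1 array. Arg2, on chromosome 12 where Arg1 is on chromosome 10, encodes a separate enzyme that catalyses the same reaction in mitochondria and is expressed in many tissues outside the liver. Its normalised log2 signal was 6.22, 6.55 and 6.51 in control replicates 1, 2 and 3, and 5.13, 4.67 and 5.87 in TGF-β1 replicates 1, 2 and 3. All TGF-β1 arrays lay below all controls, and replicate 3 was the closest of them to the controls. The means were 6.42 ± 0.18 and 5.22 ± 0.61 (SD, n = 3 each), which differ by -1.20 on the log2 scale (95% interval -1.90 to -0.50, limma unadjusted p = 0.00502, adjusted p = 0.0987). When TGF-β1 replicate 3 was left out the difference was -1.53 (limma adjusted p = 0.00847), and with any other array left out the adjusted p was 0.136 to 0.307. The spots of the single Arg2 probe were at 3.14 to 3.32 times local background in controls and 1.95 to 2.57 after TGF-β1. With normexp background the log2 fold change was -0.52 (limma adjusted p = 0.0734), so its size too depends on how background is treated. The difference of Arg1 minus Arg2 within an array was higher than its control mean by 4.55, 4.48 and 3.48 on the log2 scale in TGF-β1 replicates 1, 2 and 3, against a range of -0.07 to 0.08 over the controls. The mean shift was 4.17 ± 0.60 (SD, n = 3), but with normexp background it was 1.95. Its size is therefore not settled, since Arg1 in controls and Arg2 in both groups were close to background. This pair was chosen after the values were seen and was not tested.

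**Figure D2:**
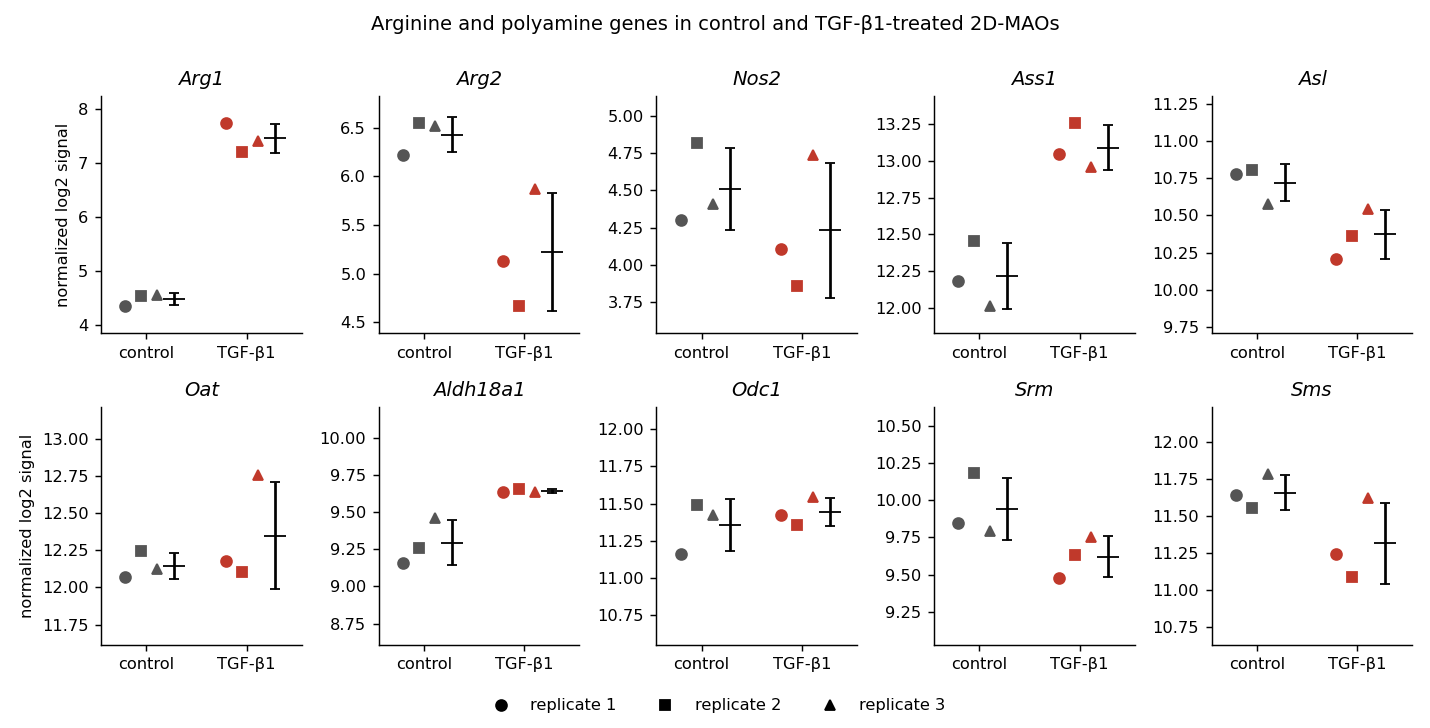
Normalised log2 signal (y axis, a separate range for each gene) of the 10 genes in control (grey) and TGF-β1-treated (red) 2D-MAOs, with 1 point per array, its shape giving the replicate number, and the mean ± SD of 3 arrays as a black bar. In Arg1 all TGF-β1 arrays are at 7.21 or higher and all controls at 4.57 or lower, whereas in Arg2 the TGF-β1 arrays are below the controls and replicate 3 (5.87) lies nearest to them.

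Nos2, the inducible nitric oxide synthase that competes with arginase for arginine, was close to background in both groups. Its normalised log2 signal was 4.30, 4.82 and 4.41 in control replicates 1, 2 and 3, and 4.10, 3.86 and 4.74 in TGF-β1 replicates 1, 2 and 3. The groups overlapped. The ratio of spot to local background was 1.74 to 1.83 in controls and 1.74 to 1.89 after TGF-β1, and the log2 fold change was -0.28 (95% interval -0.88 to 0.32, limma adjusted p = 0.53).

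Ass1 and Asl catalyse successive steps from citrulline to arginine, the first joining citrulline to aspartate and the second releasing arginine and fumarate. The normalised log2 signal of Ass1 was 12.19, 12.46 and 12.01 in control replicates 1, 2 and 3, and 13.05, 13.26 and 12.96 in TGF-β1 replicates 1, 2 and 3. The groups did not overlap, and the ratio of spot to local background was high, at 126 to 159 in controls and 238 to 257 after TGF-β1. The means were 12.22 ± 0.22 and 13.09 ± 0.15 (SD, n = 3 each), and Ass1 rose by 0.87 on the log2 scale (SE 0.15, 95% interval 0.51 to 1.23, limma adjusted p = 0.0439), short of 2-fold. This call lay near its threshold. Without any one array the log2 fold change was 0.77 to 0.99, and the call held without TGF-β1 replicate 3 (limma adjusted p = 0.0216) but not without control replicate 1, 2 or 3 (0.165, 0.0696 and 0.0729) or TGF-β1 replicate 1 or 2 (0.167 and 0.164). Under scaling to the 75th percentile the log2 fold change was 0.70 (limma adjusted p = 0.0856). Asl had signals of 10.78, 10.80 and 10.58 in control replicates 1, 2 and 3 and of 10.21, 10.36 and 10.54 in TGF-β1 replicates 1, 2 and 3. The TGF-β1 arrays lay just below the controls, with a log2 fold change of -0.35 (95% interval -0.66 to -0.04, limma adjusted p = 0.192). Within an array, Ass1 minus Asl was higher than its control mean by 1.34, 1.40 and 0.92 on the log2 scale in TGF-β1 replicates 1, 2 and 3, a mean shift of 1.22 ± 0.26 (SD, n = 3), also chosen after the values were seen and not tested.

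Of the genes that passed the test, Ass1 had an entry in the RefSeq promoter table, which held 5 of the 10 genes (Aldh18a1, Ass1, Oat, Odc1 and Sms). Its 250 bases before the annotated start, on the plus strand of GRCm38.p6 at chr2:31470020-31470269, are shown as the regulatory sequence next to the gene that rose, with motif matches in capitals.
Ass1: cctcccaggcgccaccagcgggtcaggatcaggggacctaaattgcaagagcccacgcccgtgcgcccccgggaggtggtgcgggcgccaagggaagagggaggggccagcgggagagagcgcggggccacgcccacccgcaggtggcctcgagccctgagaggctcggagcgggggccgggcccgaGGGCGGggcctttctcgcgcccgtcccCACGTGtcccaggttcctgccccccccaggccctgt
The capitals mark a GC box (GGGCGG), which starts 63 bases before the start site, and an E-box (CACGTG), which starts 36 bases before it. Searched on both strands, GGGCGG was present in 32.7% of all 32851 promoter windows of that length and CACGTG in 6.02%. CAGAC, the core of a Smad-binding element, and TGANTCA, the AP-1 site, were not found in this window, and 42.2% and 6.75% of all windows held them. The matched motifs do not overlap. Of the promoters of genes that did not pass the test, that of Aldh18a1 held 1 GC box, 1 E-box and 2 CAGAC matches, that of Odc1 4 GC boxes and that of Oat 1 CAGAC match. Sms had 2 promoter windows, of which 1 held 1 E-box and the other 4 GC boxes.

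Oat and Aldh18a1 link ornithine with glutamate and proline. Oat, the mitochondrial ornithine aminotransferase, had signals of 12.07, 12.24 and 12.12 in control replicates 1, 2 and 3 and of 12.18, 12.10 and 12.76 in TGF-β1 replicates 1, 2 and 3. TGF-β1 replicate 3 alone was above the controls. The log2 fold change was 0.20 (95% interval -0.24 to 0.65, limma adjusted p = 0.537), and without that array it was -0.0047. Aldh18a1, which encodes the enzyme that makes glutamate semialdehyde for proline and ornithine, had signals of 9.16, 9.26 and 9.46 in control replicates 1, 2 and 3 and of 9.63, 9.66 and 9.63 in TGF-β1 replicates 1, 2 and 3. The TGF-β1 arrays were all above the controls, with a log2 fold change of 0.35 (95% interval 0.08 to 0.62, limma unadjusted p = 0.0195, adjusted p = 0.161). The gap between the highest control and the TGF-β1 arrays was smaller than the range of the controls.

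None of the 3 genes of polyamine synthesis passed the test. Odc1, the rate-limiting ornithine decarboxylase that forms putrescine, had signals of 11.16, 11.49 and 11.42 in control replicates 1, 2 and 3 and of 11.43, 11.36 and 11.54 in TGF-β1 replicates 1, 2 and 3. The groups overlapped, and the log2 fold change was 0.08 (95% interval -0.22 to 0.39, limma adjusted p = 0.71), with a sign that turned under scaling to the 75th percentile (-0.02) and with the mean of the probes of the gene (-0.05). Its second probe had -0.19, so neither probe gave a change beyond the spread.
Srm, the spermidine synthase, had signals of 9.85, 10.18 and 9.80 in control replicates 1, 2 and 3 and of 9.48, 9.63 and 9.76 in TGF-β1 replicates 1, 2 and 3. The groups were adjacent without overlap, and the log2 fold change was -0.32 (95% interval -0.66 to 0.02, limma adjusted p = 0.25). The other probes of Srm had -0.36 and -0.50.
Sms, the spermine synthase, had signals of 11.64, 11.55 and 11.78 in control replicates 1, 2 and 3 and of 11.24, 11.09 and 11.62 in TGF-β1 replicates 1, 2 and 3. On the probe used, TGF-β1 replicate 3 lay among the controls and the other TGF-β1 arrays below them. On the other probes TGF-β1 replicate 3 was at 9.70 and 10.63, just below the lowest controls at 9.78 and 10.67. The log2 fold change was -0.34 (95% interval -0.72 to 0.04, limma adjusted p = 0.262), the other probes had -0.51 and -0.38, and without TGF-β1 replicate 3 it was -0.49 (limma adjusted p = 0.0482). Of 6 markers of dividing cells, 4 were lower and 2 higher by their means. The summed signal of Mki67, Top2a, Ccnb1, Cdk1, Mcm2 and Pcna was 17385 to 18346 in controls and 12493 to 16509 after TGF-β1, and none of the 6 genes passed the test (median of their log2 fold changes -0.34). That sum mainly follows the bright probe of Pcna, at 14982 to 15477 in controls and 10027 to 14758 after TGF-β1, and gives no common direction of the 6 genes. Mki67 went the other way on TGF-β1 replicates 1 and 2, with signals of 1687 and 849 beside 309 to 740 in controls, and was 214 on replicate 3. The part of these values in the results for Srm and Sms was not tested.

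TGF-β1 replicate 3 was the TGF-β1 array nearest to the control mean in 7 of the 10 genes (Arg2, Nos2, Ass1, Asl, Aldh18a1, Srm and Sms), and the same held for 56.9% of all genes tested. It was not in Arg1, Oat and Odc1. Without this array 4 of the 10 genes passed the adjusted threshold, namely Arg1 and Ass1 (higher) and Arg2 and Sms (lower), while 9.08% of all genes tested were called higher and 6.27% lower in that fit. The arrays of replicate 3 of both groups lay in row 2 of the slide and the other 4 in row 1. Within row 1, with 2 arrays per group, the log2 fold changes were 3.03 for Arg1, 0.83 for Ass1, -1.48 for Arg2, -0.51 for Asl, 0.44 for Aldh18a1 and -0.43 for Sms, all with a limma adjusted p under 0.05 (0.00779, 0.0242, 0.0166, 0.0321, 0.0373 and 0.0476). In that fit 13.8% of all genes tested were called higher and 13% lower. Within row 2, with 1 array per group and no test, they were 2.85, 0.94, -0.64, -0.03, 0.17 and -0.16 in the same order. With slide row as a block Arg1 and Ass1 passed (limma adjusted p = 0.00367 and 0.032) and Arg2 did not (0.0619).

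**Figure D3:**
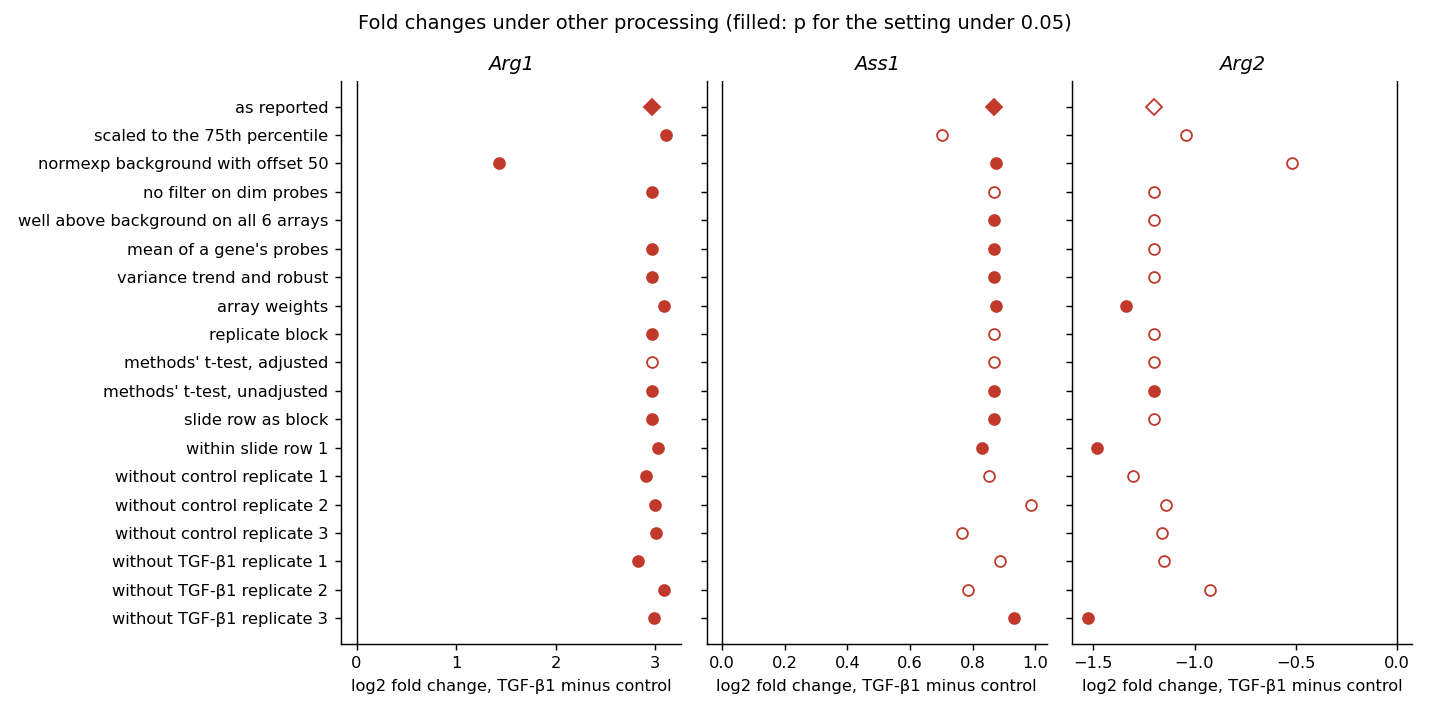
Log2 fold change (x axis, TGF-β1 minus control) of Arg1, Ass1 and Arg2 under each processing setting (y axis), filled where the p of that setting was under 0.05 (adjusted, except for the setting named as unadjusted). Arg1 is filled in all settings shown but the methods' t-test with adjustment, Ass1 loses its call without any one array but TGF-β1 replicate 3, and Arg2 gains it without that replicate (-1.53).

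Further genes around these enzymes were taken from a list of 46, of which 44 had a named probe and 38 passed the filter. None passed the adjusted threshold in either direction (0 of 38 with limma), beside 2.04% of all genes tested. By their means 16 were higher and 22 lower, where 45.8% of all genes tested were higher. Their median change on the log2 scale was -0.02. At an unadjusted limma p under 0.05, 5 were higher and 4 lower, beside 11.4% and 10.7% of all genes tested. With the methods' t-test, unadjusted, 5 were higher and 4 lower as well, beside 1304 and 1147 of the 14345 genes tested. The largest change was that of Sat2, a member of the diamine acetyltransferase family, at 0.79 (SE 0.15, limma adjusted p = 0.0604). Its paralogue Sat1, the rate-limiting enzyme of polyamine breakdown, had a log2 fold change of -0.0009. Slc25a15, the carrier that moves ornithine across the inner mitochondrial membrane, had -0.74 (SE 0.20, limma adjusted p = 0.114). Ddah1, which breaks down the methylarginines that inhibit nitric oxide synthases, had 0.66 (SE 0.16, limma adjusted p = 0.0987), and Agmat, named for the hydrolysis of agmatine, had -0.48 (SE 0.11, limma adjusted p = 0.0897). The groups did not overlap in 10 of the 38 genes (26.3%), these 4 included, beside 26.4% of all genes tested. Without TGF-β1 replicate 3 Sat2, Slc25a15, Agmat and Spr (-0.57) passed (limma adjusted p = 0.0312, 0.0355, 0.0376 and 0.0377), as did Ddah1 without control replicate 3 (0.0358). Slc25a15 spots were at 2.35 to 3.35 times local background in controls and 2.38 to 2.45 after TGF-β1. Agmat spots were at 2.94 to 3.25 and 2.78 to 3 times it, and Sat2 spots at 2.77 to 3.14 and 4.24 to 6.04. With normexp background the log2 fold changes of Slc25a15, Agmat and Sat2 were -0.27, -0.20 and 0.48 (limma adjusted p = 0.194, 0.266 and 0.0651).
In the remaining roles even the largest change missed the threshold. It was 0.35 for the amino acid transporter Slc7a6, -0.03 for Mat2b, a subunit of methionine adenosyltransferase, -0.34 for the antizyme Oaz1, which targets ornithine decarboxylase for degradation, and 0.50 for Atp13a2, a lysosomal polyamine exporter (limma adjusted p = 0.334, 0.895, 0.231 and 0.207). It was -0.27 for Eif5a2, a translation factor modified with a spermidine-derived residue, and -0.21 for the proline dehydrogenase gene Prodh (limma adjusted p = 0.365 and 0.594). The urea cycle genes Cps1, Otc and Nags were not well above background on any of the 6 arrays, nor were Oaz3, Nos1 and Gatm.

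**Figure D4:**
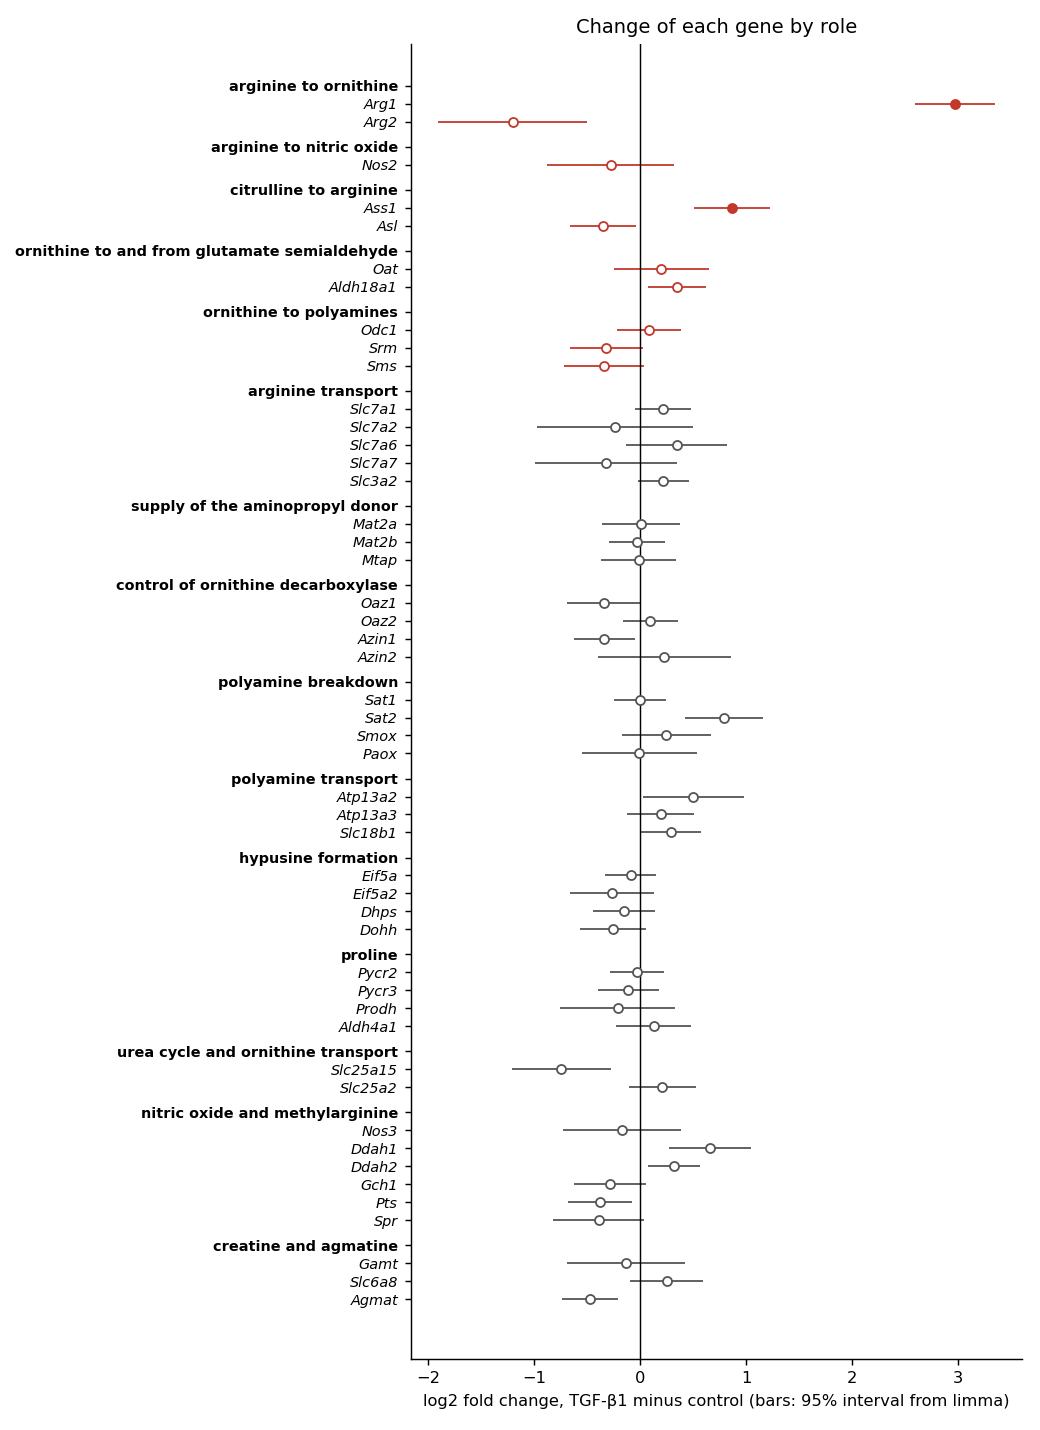
Log2 fold change (x axis, TGF-β1 minus control) with its 95% interval from limma for the 10 genes (red) and the 38 further genes of the pathway that passed the filter (grey), grouped by role on the y axis, with filled points for an adjusted p under 0.05. Arg1 and Ass1 are the filled points, and Arg1 (2.97) lies beyond every other gene.

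Because Arg1 and Nos2 are also macrophage genes, markers of other cell types were examined on the same arrays. In whole cultures, a change in the number of cells of a type and a change in RNA per cell cannot be told apart. Of 8 macrophage and leukocyte markers, Ptprc, Adgre1, Mrc1 and Lyz2 were not well above background on any array, while Cd68, Csf1r, Itgam and Cd3e were above it on all 6. None of the 4 tested had a limma adjusted p under 0.05. Cd68 and Itgam had log2 fold changes of 0.90 and 0.43 (limma adjusted p = 0.147 and 0.134), with all TGF-β1 arrays above all controls. Csf1r and Cd3e had 0.01 and -0.24 (limma adjusted p = 0.984 and 0.395), and their groups overlapped. The summed signal of the list was 10564 to 12285 in controls and 13565 to 14759 after TGF-β1. Of 8 fibroblast markers, Col3a1, Pdgfrb, Dpt and Lum were not well above background on any array. Col1a1 and Col1a2 were above it only on the 3 TGF-β1 arrays, through which alone they passed the filter, and Pdgfra and Dcn were above it on all 6. The summed signal of the list was 555 to 633 in controls and 683 to 2409 after TGF-β1. It mainly follows the bright probe of Dcn, at 449 to 506 in controls and 2191, 823 and 506 in TGF-β1 replicates 1, 2 and 3. The dim probes of Col1a1 and Col1a2, with signals of at most 48.3 and 44.7, hardly register in it. Of 5 endothelial markers, Cdh5, Kdr, Tek and Emcn were not well above background on any array, while Pecam1 was above it on all 6. Pecam1 spots were at 3.09 to 3.27 times local background in controls and 3.75 to 4.29 after TGF-β1, with overlapping groups (limma adjusted p = 0.505). Among the airway markers, Foxj1, a gene of ciliated cells, rose by 1.47 on the log2 scale (limma adjusted p = 0.00239). Scgb1a1, a gene of club cells, had a log2 fold change of -2.27 and Krt5, a gene of basal cells, one of 1.37 (limma adjusted p = 0.158 and 0.178). The part of these cell types in the changes of Arg1 and Ass1 was not tested beyond these values.

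Over the 6 arrays, Angptl8 and Rhbg were among the genes whose signal followed that of Arg2 most closely, with Pearson r of 1.00 and 0.995 across the 6 values. They were ranked among 14345 genes over points that share the slide and the 2 groups, and are a description only.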

How the data were processed

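Single-colour (Cy3) Agilent SurePrint G3 Mouse arrays, 1 per culture, were read by the authors with Feature Extraction 11.0.1.1. The deposited files give the intensity of each spot on a linear scale, background-subtracted and detrended within the array but not normalised between arrays, together with median intensities of spot and local background and Agilent's detection flag. The slide held all 6 arrays and had 1 scan time. The number of arrays limits the precision.

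Control spots and spots marked as outliers were left out, log2 spot values of a probe were averaged and 56599 of 56605 probes remained. RefSeq accessions named 32991 probes through a table for GRCm38.p6. Log2 values were quantile normalised as in the methods of the study, and a probe was required to be flagged as detected (well above background) on 3 or more of the 6 arrays. A gene was its passing probe with the highest mean. Groups were compared over 14345 genes with limma 3.58.1 in R 4.3.3 with Benjamini-Hochberg adjustment, and the fit was tested on simulated data. The methods name an unpaired t-test, which was run as an alternative.

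All 10 members, the response genes, any further pathway gene that passed and otherwise the largest change in each role are named. The genes most like Arg2 over the arrays were named as well, and 2 genes that the rule names are not reported here. Other genes, and the paired differences of Arg1 and Arg2 and of Ass1 and Asl, were chosen after their values were seen. The members and lists were chosen with earlier results of these data known. The planned background alternative used the median intensity. Symbols in the promoter table were matched by name, and sequences are credited to RefSeq.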

Additional observations from a re-analysis of the deposited data

How the results depend on the processing

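Of the 10 members, 2 were called higher (Arg1 and Ass1) and 0 lower. The count of higher members was 1 under scaling to the 75th percentile, without a filter, with detection on all 6 arrays (which removes Arg1), and with the replicate block, 0 with the methods' t-test after adjustment, and 1 to 2 with each array left out. With array weights 3 members were higher and 4 lower, where 2408 and 2574 of the 14345 genes tested were called higher and lower. With the unadjusted t-test 3 members were higher and 2 lower, beside 1304 and 1147 of all genes. Within slide row 1 they were 3 and 3, beside 13.8% and 13% of all genes. With each array left out 0 to 2 members were lower. Arg2 kept its negative sign under all 18 alternatives and passed with array weights (-1.34), with the unadjusted t-test (-1.20), within slide row 1 (-1.48) and without TGF-β1 replicate 3, with a range of -1.53 to -0.92 over the arrays left out. Oat had -0.0163 within slide row 1 and -0.0047 to 0.32 with each array left out. Odc1 had -0.0241 under scaling to the 75th percentile, -0.0527 with the mean of its probes and -0.0148 to 0.15 with each array left out, and Mat2b had -0.105 to 0.0169. No other gene named by the rule changed sign.

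Of the further pathway genes 0 were called in either direction. There was 1 higher under scaling to the 75th percentile, 7 higher and 8 lower with array weights, 5 and 4 with the unadjusted t-test, 6 and 6 within slide row 1, and 0 to 1 and 0 to 3 with each array left out. Over all genes, 234 were higher and 58 lower at an adjusted p under 0.05. The counts were 59 and 15 without a filter, 399 and 108 with trend and robust fitting, 2408 and 2574 with array weights, 7 and 2 with the adjusted and 1304 and 1147 with the unadjusted t-test, and 1984 and 1862 within slide row 1. With slide row as a block 105 were lower, and with each array left out 49 to 1302 were higher and 7 to 900 lower. The cause of these differences was not tested. Replicate numbers are shared between groups in the labels, but the deviations of same-numbered arrays correlated at -0.01, 0.33 and -0.05, so that the number was not taken as a pairing. With it as a replicate block, 85 genes were higher and 18 lower, Arg1 had an adjusted p of 0.02, Ass1 of 0.0606 and Arg2 of 0.133. Control replicate 1 correlated best with TGF-β1 replicate 3 and not with its own number. Signal over background limits the size of the changes of Arg1, Arg2 and Nos2, whose spots were at most 7.93, 3.32 and 1.89 times their local background. The same limit applies to Sat2, Slc25a15 and Agmat, whose spots were at most 6.04, 3.35 and 3.25 times it.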
